A study of Arabidopsis thaliana with 24 samples.

Results

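On these arrays, 50 Arabidopsis genes had a mean signal at least 1 unit higher on a log2 scale in tt4 plants than in Col-0 plants, with the WOX1-2 line in between. tt4 is a mutant of CHS, the gene of chalcone synthase, and Col-0 is the wild type. The log2 scale is log2(signal + 42.6), so a difference of 1 is a change of 2-fold in signal plus offset. The gene set was chosen by 3 further conditions: the mean signal in tt4 lay above 170, the probe set named exactly 1 gene, and it was no control. Of 22746 non-control probe sets, 13513 name 1 gene, and 53 of these met the conditions. A further 89 probe sets met the conditions on signal but name several genes or none, and the account by role does not cover them. COR27, GH3.3 and AT3G23550 were left out by name, which leaves 50 genes with 1 probe set each. Values of tt4, WOX1-2 and Col-0 chose the genes, so differences among these 3 genotypes are given as a description without a test. Tests are read only for the other 5 genotypes, and for array number within those 5. A fit of array number over all 8 genotypes is also given, as a description.

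Total RNA came from the aerial parts of 3-week-old plants, grown on agar with 1% sucrose at 22 °C in cycles of 16 h light and 8 h dark. The 8 genotypes have 3 arrays each. Among them, 3 carry the CHS mutation: tt4, in the Col-0 background, and the homozygous crosses pap1-D/tt4 and MYB12OX/tt4. WOX1-2 and WOX1-1 are homozygous crosses of the MYB12OX and pap1-D lines. pap1-D overexpresses the MYB75/PAP1 gene and MYB12OX overexpresses MYB12, both homozygous in the Col-0 background, and the last genotype is Col-0 itself. The labels name no promoter for the overexpressed genes, do not state the zygosity of the tt4 line, and give no word on whether a genotype's 3 arrays stem from separate plants. P-values therefore cover only the variation among these arrays, which may be technical. The growth text also describes a drought experiment, which no label ties to an array. In bulk tissue, fewer cells of a type and less RNA per cell cannot be told apart.

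Chalcone synthase makes the first committed intermediate of flavonoid synthesis, and plants without it lack flavonols and anthocyanins. MYB12 switches on the genes of flavonol synthesis, and MYB75 (PAP1) those of anthocyanin synthesis. The tissue label was checked against markers. RCA (Rubisco activase, abundant in green leaves) had mean signals between 20157 in MYB12OX/tt4 and 24993 in Col-0. Of the pollen and tapetum markers, ATA27 had means between 140.2 in tt4 and 2.31 in MYB12OX, and A9 between 85.7 in MYB12OX/tt4 and 19.8 in MYB12OX. ATA27 passed as higher in MYB12OX/tt4 against MYB12OX, by 1.67 ± 0.52 (adjusted p = 0.0279), and its part in the results was not tested. Of the lists of root, flower and seed markers, no gene was tested. Over all probe sets tested, the first principal component (34.5% of the variance) followed the order in which the arrays are listed, and pap1-D replicate 1 and WOX1-1 replicate 1 stood apart on the next (14.9%), at -22.3 and -22.1.

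By role, the 50 genes comprise 5 genes of amino acid metabolism, 3 transcription factors, 5 kinases and calcium proteins, 7 enzymes of small molecules, 9 membrane, transport and cold-related proteins, 5 genes of the cell wall, lectins and inhibitors, 3 of other roles and 13 to which no role is given here. Their mean signals ran from 50.4 to 2923 in Col-0. In 8 genes the Col-0 mean was below 85.2, the floor used here for a usable signal.

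The tt4 minus Col-0 difference lay between 1.02 and 2.24, and the ratio of mean signals between 2.05 and 7.83. All 3 tt4 arrays stood above all 3 Col-0 arrays in 49 of the 50 genes, and LTI30 was the exception. These values were used to choose the genes, and 19.2% of all 14935 probe sets tested passed as higher in tt4 than in Col-0, so nothing is read from this count. Just inside the threshold were AT1G11330 with 1.03, AT2G48030 with 1.03 and SUFE2 with 1.02. Just outside it were AT4G17070 with 0.998, AT4G39270 with 0.996 and AT1G19020 with 0.995. A further 6 probe sets met all conditions but the signal of 170, and 11 had WOX1-2 outside the range. Without the arrays numbered 1, the difference was at least 1 in 40 of 50 genes and above 0 in all 50. The lowest was LTI30 with 0.33. These arrays also entered the means that chose the genes, so nothing is read from the 2 counts without the arrays numbered 1.

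Each genotype's place was then expressed as a percentage of the tt4 minus Col-0 difference, 100 being tt4 and 0 Col-0. The median over the 50 genes was 94.4% in pap1-D/tt4 (42.8 to 137.8%) and 83.8% in MYB12OX/tt4 (46.1 to 105.4%). It was 72.2% in WOX1-2, 53.7% in WOX1-1, 42.7% in pap1-D and 25.0% in MYB12OX (-8.8 to 68.3%). The highest mean of a gene was in tt4 for 30 genes, in pap1-D/tt4 for 16 and in MYB12OX/tt4 for 4. The lowest was in Col-0 for 45 genes, in MYB12OX for 3 and in WOX1-1 for 2. The places of tt4, WOX1-2 and Col-0 were set by the rule, and nothing is read from them.

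**Figure D1:**
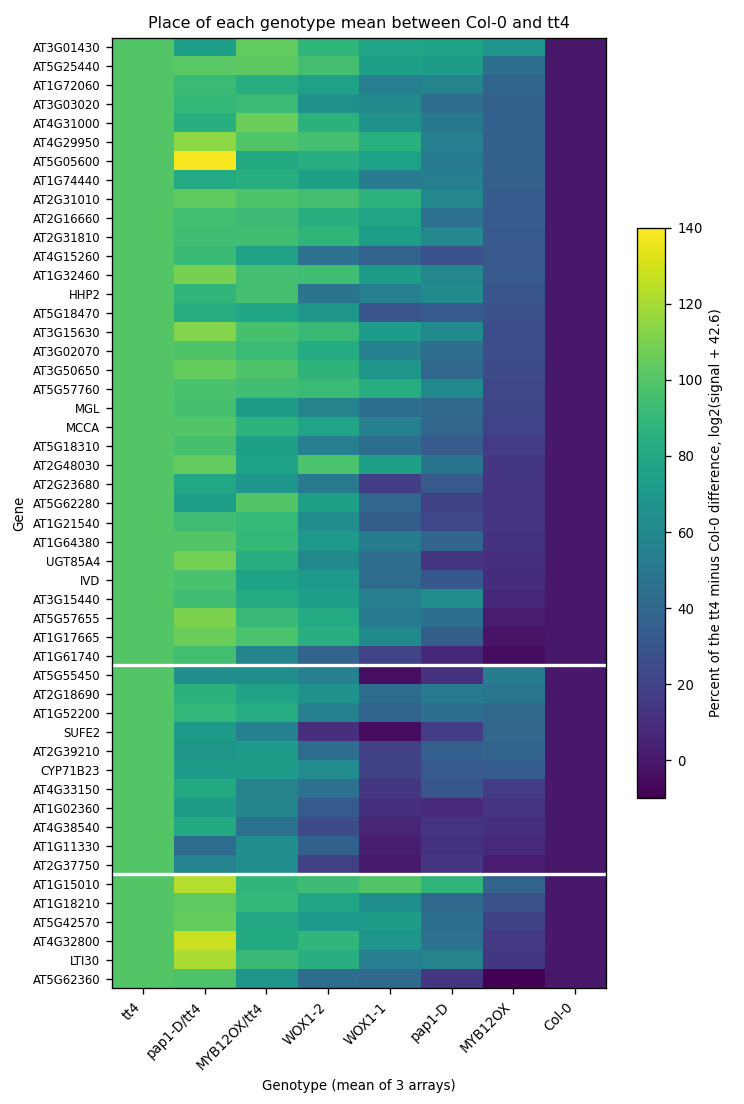
Colour gives the place of each genotype mean (3 arrays) between Col-0 at 0% and tt4 at 100% on the log2(signal + 42.6) scale, with genes as rows and genotypes as columns. White lines separate 33 genes, 11 genes whose WOX1-1 mean was not above their MYB12OX mean, and 6 genes lower on arrays numbered 3. The calls of these 6 genes come from a fit over all 8 genotypes and are a description. Medians are 94.4% in pap1-D/tt4 and 25.0% in MYB12OX.

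The genotypes are listed in the deposit in the order Col-0, MYB12OX, pap1-D, WOX1-1, WOX1-2, MYB12OX/tt4, pap1-D/tt4 and tt4, and the means mostly climbed along this list. The rule itself set Col-0 low, tt4 high and WOX1-2 between them. Steps with these genotypes, and the order through all 8, are therefore a description from which nothing is read. MYB12OX was above Col-0 in 47 genes, pap1-D above MYB12OX in 44, WOX1-1 above pap1-D in 33 and WOX1-2 above WOX1-1 in 47. MYB12OX/tt4 was above WOX1-2 in 46 genes, pap1-D/tt4 above MYB12OX/tt4 in 38 and tt4 above pap1-D/tt4 in 33. The means of 9 genes were ordered through all 8 genotypes, namely MCCA, IVD, MGL, AT2G31810, AT2G16660, AT1G21540, AT3G02070, AT5G18310 and AT5G57760. Over the 5 genotypes that the rule did not use, 25 of 50 genes kept this order. The share of all probe sets in this order was not computed, so nothing is read from that count. For single steps, 44.5% of all probe sets tested were higher in pap1-D than in MYB12OX and 53.8% in WOX1-1 than in pap1-D. In pap1-D/tt4, 49% were higher than in MYB12OX/tt4.

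Loss of CHS in an overexpressor background was the first comparison independent of the rule. MYB12OX/tt4 was higher than MYB12OX in 39 of the 50 genes and lower in 0 (limma, Benjamini-Hochberg adjusted p under 0.05), where 9.2% of all probe sets tested passed as higher and 8.23% as lower. The median difference was 0.74 over the 50 genes (0.14 to 1.75) and 0.02 over all probe sets tested. pap1-D/tt4 was higher than pap1-D in 37 genes and lower in 0, against 10.1% higher and 8.84% lower in the background. The median difference here was 0.66 over the 50 genes (-0.02 to 1.55) and 0.04 over all. Leaving out 1 array at a time, the counts lay between 31 and 36 for MYB12OX/tt4 and between 25 and 34 for pap1-D/tt4, the lowest without pap1-D replicate 1.

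In both comparisons 36 genes passed as higher. AT2G37750, AT1G74440 and HHP2 passed in MYB12OX/tt4 alone and AT5G05600 in pap1-D/tt4 alone, though the difference between the 2 effects passed in none of the 50 genes. That difference, with 0 calls at adjusted p under 0.05 and 7 genes at unadjusted p under 0.05, ran from -0.73 to 0.60 (MYB12OX background minus pap1-D background), and its widest 95% intervals reached -2.57 and 3.21. In the background 0.0067% of probe sets passed as higher, and 819 of 14935 were at unadjusted p under 0.05 in limma. Every MYB12OX/tt4 array stood above every MYB12OX array in 45 of 50 genes (20.1% of all probe sets), and every pap1-D/tt4 array above every pap1-D array in 39 (18.6%).

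**Figure D2:**
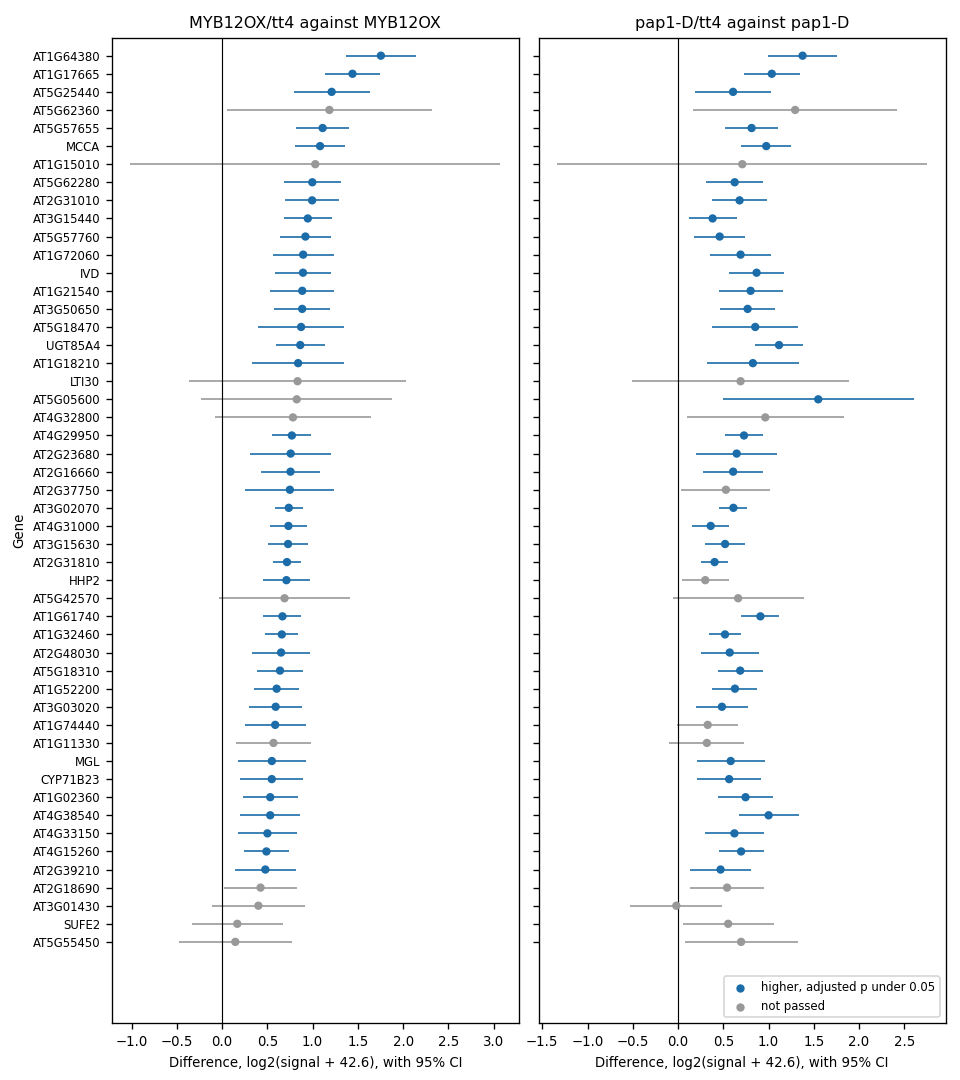
Difference on the log2(signal + 42.6) scale for each of the 50 genes (rows), with 95% confidence interval, in MYB12OX/tt4 against MYB12OX (left) and pap1-D/tt4 against pap1-D (right), 3 arrays per genotype. Blue points passed as higher, 39 on the left and 37 on the right, and grey points did not pass.

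These counts run beside the order of listing. CHS mutants stand 12 places after their partners in the list of 24 arrays, and the comparisons that do not involve CHS also moved up with distance along it. WOX1-1 stood 6 places after MYB12OX and was higher in 15 of 50 genes and lower in 0 (2.09% of all probe sets higher, 2.19% lower), with a median of 0.33. Without MYB12OX replicate 1 the count was 6, without WOX1-1 replicate 3 it was 9, and without WOX1-1 replicate 1 it was 14. pap1-D, 3 places after MYB12OX, was higher in 1 gene, AT3G15440, with 0.72 ± 0.13 (SE; adjusted p = 0.00738), where 0.161% of probe sets passed as higher and 0.0402% as lower. That call was lost without MYB12OX replicate 1 or 2 or pap1-D replicate 3, with adjusted p up to 0.106. WOX1-1 against pap1-D and pap1-D/tt4 against MYB12OX/tt4 each gave 0 calls in limma, with 8 and 4 genes at unadjusted p under 0.05 and medians of 0.12 and 0.15. In those comparisons 0.0134% and 0.127% of probe sets passed as higher, and 0.0335% and 0.0737% as lower. At unadjusted p under 0.05 in limma there were 1085 and 1006 of all 14935 probe sets.

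Per listing place, the median difference of the 50 genes was 0.0618 for MYB12OX/tt4 against MYB12OX and 0.0547 for pap1-D/tt4 against pap1-D. It was 0.0545 for WOX1-1 against MYB12OX, 0.0415 for WOX1-1 against pap1-D, 0.0695 for pap1-D against MYB12OX and 0.0513 for pap1-D/tt4 against MYB12OX/tt4. Between arrays numbered 3 and arrays numbered 1 of the same genotype, 2 places apart, it was 0.0777 in the fit over all genotypes. That fit holds the tt4, WOX1-2 and Col-0 arrays that chose the genes, so this value is a description from which nothing is read. With listing place as a covariate, the differences were negative in 30 of 50 genes for MYB12OX/tt4 and in 33 for pap1-D/tt4, with medians of -0.28 and -0.32. In each CHS comparison 4 genes passed as higher, where 0.141% of all probe sets passed as higher and 0.161% as lower for MYB12OX/tt4, and 0.315% and 0.596% for pap1-D/tt4. AT1G64380 was called with and without the covariate, at 3.11 (adjusted p = 0.0373) for MYB12OX/tt4 with it. AT1G15010, AT5G62360 and AT4G32800 passed only with the covariate, at 12.7, 8.07 and 5.77 for MYB12OX/tt4, and all 3 had their highest signals on arrays numbered 1. What the listing order stands for was not given in the sources used here, and genotype and listing place cannot be told apart by comparing genotypes.

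**Figure D3:**
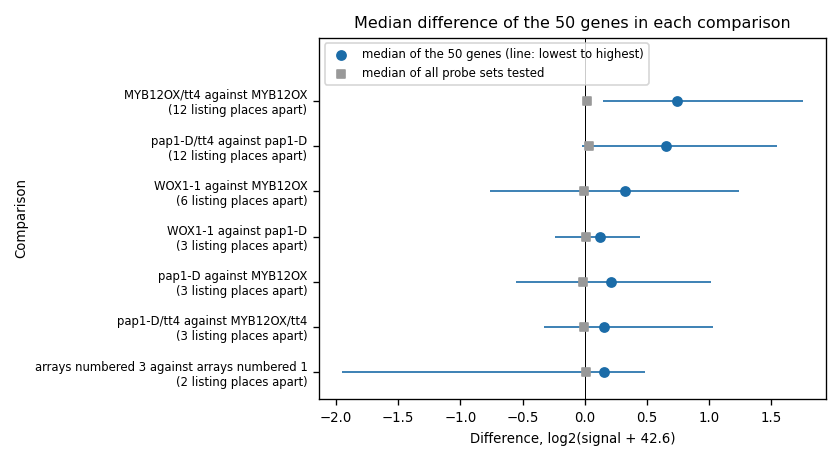
Median (point) and lowest to highest (line) difference of the 50 genes on the log2(signal + 42.6) scale in 7 comparisons, with the median of all probe sets tested as a square. Points lie at 0.74 and 0.66 for the comparisons 12 listing places apart and between 0.12 and 0.33 for those 3 or 6 places apart, and the squares stay near 0. The comparison of arrays numbered 3 against arrays numbered 1, 2 places apart, holds the tt4, WOX1-2 and Col-0 arrays that chose the genes. Its point at 0.155 is a description from which nothing is read.

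The calls by role below stand beside 39 and 37 of all 50 genes and 9.2% and 10.1% of all probe sets, and no role was tested against the others. Genes of amino acid metabolism were higher in both comparisons in 5 of 5 cases. MCCA encodes a subunit of methylcrotonyl-CoA carboxylase, an enzyme of leucine breakdown. MCCA signals were 4377, 4704 and 5181 in tt4, 3966, 4974 and 5401 in pap1-D/tt4 and 3836, 3927 and 4565 in MYB12OX/tt4. WOX lines gave 3390.3, 3856 and 3799.9 in WOX1-2 and 2482, 2998 and 3159 in WOX1-1, and the remaining genotypes 2172, 2513 and 2505 in pap1-D, 1608, 2033 and 2142 in MYB12OX and 1348, 1373 and 1895 in Col-0. No array of MYB12OX/tt4 overlapped with MYB12OX, nor did pap1-D/tt4 with pap1-D. MCCA differed by 1.08 ± 0.13 (SE; adjusted p = 6.16e-06) in MYB12OX/tt4 and by 0.97 ± 0.13 (adjusted p = 2.29e-05) in pap1-D/tt4, and in the 5 genotypes outside the rule arrays numbered 3 were above arrays numbered 1 by 0.33 (adjusted p = 0.012).

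IVD, isovaleryl-CoA dehydrogenase, acts in the same pathway and averaged 2127 ± 231 in tt4 and 838 ± 193 in Col-0 (SD, n = 3 each, as for the means below). Its differences were 0.89 ± 0.15 (SE; adjusted p = 0.000184) in MYB12OX/tt4 and 0.87 ± 0.15 (adjusted p = 0.000273) in pap1-D/tt4. Between arrays numbered 3 and 1 of those 5 genotypes, IVD differed by 0.29 (adjusted p = 0.0929). AT2G31810, a regulatory subunit of acetolactate synthase in the synthesis of branched-chain amino acids, was higher by 0.72 ± 0.07 (SE; adjusted p = 1.08e-06) in MYB12OX/tt4 and by 0.40 ± 0.07 (adjusted p = 0.000537) in pap1-D/tt4. AT4G33150 encodes the enzyme LKR/SDH of lysine breakdown. It differed by 0.50 ± 0.16 (adjusted p = 0.0316) in MYB12OX/tt4 and 0.62 ± 0.16 (adjusted p = 0.00784) in pap1-D/tt4. MGL, methionine gamma-lyase, differed by 0.55 ± 0.18 (adjusted p = 0.0396) in MYB12OX/tt4 and 0.58 ± 0.18 (adjusted p = 0.0274) in pap1-D/tt4. In MYB12OX/tt4 the calls of AT4G33150 and MGL were each lost without replicate 1 or 3 of MYB12OX or replicate 2 or 3 of MYB12OX/tt4, with adjusted p up to 0.177 and 0.179. In pap1-D/tt4 that of AT4G33150 was lost without pap1-D replicate 1 (adjusted p = 0.0629). That of MGL was lost there without replicate 1 or 3 of pap1-D or replicate 2 or 3 of pap1-D/tt4, with adjusted p up to 0.158.

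Other genes of amino acid breakdown were collected in a list of 29, added after the data were seen. Of these, 14 were tested and 4 belong to the 50 genes. In MYB12OX/tt4 against MYB12OX 8 of the 14 were higher and 0 lower, where 9.2% and 8.23% of all probe sets passed. The median was 0.40 against 0.02 over all probe sets. In pap1-D/tt4 against pap1-D 10 were higher and 1 lower (10.1% and 8.84% of all probe sets), with a median of 0.38 against 0.04. The 4 genes of the 50 (MCCA, IVD, AT4G33150 and MGL) passed as higher in both comparisons and enter these counts and medians, so nothing is read from them. MCCB, the other carboxylase subunit, differed by 0.48 ± 0.09 (adjusted p = 0.000599) in MYB12OX/tt4 and 0.28 ± 0.09 (adjusted p = 0.0346) in pap1-D/tt4, and the second call was lost without replicate 1 or 3 of pap1-D or replicate 3 of pap1-D/tt4, with adjusted p up to 0.188. ETFQO, which passes electrons from this breakdown to the respiratory chain, was higher by 0.56 ± 0.12 (adjusted p = 0.00205) and 0.69 ± 0.12 (adjusted p = 0.000322) in the same comparisons. ALDH6B2, a dehydrogenase of valine breakdown, was higher by 0.47 ± 0.08 (adjusted p = 0.000279) and 0.43 ± 0.08 (adjusted p = 0.000692).

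Transcription factors passed as higher in 2 of 3 cases in each comparison. AT1G64380, a factor of the AP2/ERF family, had the largest difference in tt4. Its signals were 420.0, 379 and 384 in tt4, 549, 314 and 352 in pap1-D/tt4 and 321, 332 and 341 in MYB12OX/tt4. They were 248, 206 and 246 in WOX1-2 and 230.4, 149.9 and 134 in WOX1-1, and 179.8, 101 and 107 in pap1-D, 88.5, 59.4 and 59.4 in MYB12OX and 34.8, 58.0 and 58.3 in Col-0. The CHS mutants lay above all other arrays, and in every genotype but MYB12OX/tt4 and Col-0 the array numbered 1 was the highest. AT1G64380 was higher by 1.75 ± 0.18 (SE; adjusted p = 1.29e-06) in MYB12OX/tt4, by 1.38 ± 0.18 (adjusted p = 2.10e-05) in pap1-D/tt4, and by 0.92 ± 0.18 (adjusted p = 0.00521) in WOX1-1 against MYB12OX. AT3G50650, a GRAS-family factor, averaged 248 ± 11.8 in tt4 and 84.8 ± 16.4 in Col-0 and passed as higher in both CHS comparisons. In the list of 8 AP2/ERF factors of the RAP2.4 group, AT1G64380 was the 1 gene of 3 tested that passed.

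AT4G32800, also of the AP2/ERF family, differed by array number. Its signals were 381, 185 and 201 in tt4, 824, 166 and 216 in pap1-D/tt4 and 205, 252 and 159 in MYB12OX/tt4. WOX1-2 and WOX1-1 gave 324, 159 and 199.5 in WOX1-2 and 359.7, 151 and 99.0 in WOX1-1. The remaining genotypes had 244, 100.2 and 112 in pap1-D, 139, 90.9 and 76.8 in MYB12OX and 82.6, 105 and 66.0 in Col-0. In 0 of 8 genotypes was the array numbered 3 above the array numbered 1, and over the 5 genotypes outside the rule the difference, numbers 3 minus 1, was -1.01 (adjusted p = 0.0459). The CHS comparisons, at 0.78 ± 0.42 (adjusted p = 0.215) and 0.96 ± 0.42 (adjusted p = 0.113), did not pass.

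Kinases and calcium proteins were higher in 4 of 5 cases in each comparison. AT5G25440, a protein kinase, had signals of 591, 599 and 722 in tt4, 599, 594 and 766 in pap1-D/tt4 and 655, 634 and 689 in MYB12OX/tt4. The WOX lines gave 594, 506 and 703 in WOX1-2 and 536, 395 and 362 in WOX1-1, and the others 372, 423 and 439.7 in pap1-D, 220.3, 272 and 294 in MYB12OX and 51.1, 159 and 155 in Col-0. MYB12OX arrays lay far below MYB12OX/tt4 arrays, and the Col-0 array numbered 1 was the lowest of the 24. AT5G25440 was higher by 1.21 ± 0.20 (SE; adjusted p = 0.000223) in MYB12OX/tt4. In pap1-D/tt4 it was higher by 0.61 ± 0.20 (adjusted p = 0.039), a call lost whichever of the 6 arrays was left out, with adjusted p between 0.0501 and 0.156. AT2G31010, another kinase, averaged 508 ± 85.1 in tt4 and 148 ± 25.0 in Col-0, and was higher in both CHS comparisons and in WOX1-1 against MYB12OX, by 0.82 ± 0.14 (adjusted p = 0.00206).

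AT1G11330, a receptor kinase of the S-locus lectin type, was the kinase that did not pass. Its signals were 216, 266 and 289.6 in tt4, 139, 169 and 159 in pap1-D/tt4 and 199, 199 and 166 in MYB12OX/tt4. Those of the WOX lines were 89.6, 158 and 215 in WOX1-2 and 124, 124 and 74.7 in WOX1-1. The remaining genotypes gave 96.3, 112 and 144 in pap1-D, 117, 141 and 84.9 in MYB12OX and 75.2, 117 and 122 in Col-0. Its highest values were in tt4, where the arrays did not overlap with any pap1-D/tt4 array. Its differences were 0.57 ± 0.20 (adjusted p = 0.0526) in MYB12OX/tt4 and 0.32 ± 0.20 (adjusted p = 0.288) in pap1-D/tt4. AT1G18210, a calcium-binding EF-hand protein, passed as higher in both CHS comparisons.

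Enzymes of small molecules were higher in 6 of 7 cases in MYB12OX/tt4 and in 7 of 7 in pap1-D/tt4. UGT85A4, a glycosyltransferase, had signals of 517, 643 and 546 in tt4, 543, 563 and 740.2 in pap1-D/tt4 and 427, 545 and 518 in MYB12OX/tt4. The WOX lines stood at 334, 406 and 484 in WOX1-2 and 341, 354 and 332 in WOX1-1. The others stood at 208, 284 and 289.8 in pap1-D, 269.9, 252 and 237 in MYB12OX and 219, 217 and 248 in Col-0. All pap1-D/tt4 arrays exceeded all pap1-D arrays, by 1.12 ± 0.13 (SE; adjusted p = 3.73e-06). In MYB12OX/tt4 the gene was higher by 0.86 ± 0.13 (adjusted p = 6.92e-05).

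AT5G57655, a xylose isomerase, had signals of 2344, 3025 and 2736 in tt4, 2544, 3126 and 3186 in pap1-D/tt4 and 2217, 2703 and 2559 in MYB12OX/tt4. Values of 1971, 2331 and 2606 in WOX1-2 and 1626, 1699 and 1973 in WOX1-1 followed. Other arrays read 1328, 1958 and 1737 in pap1-D, 1048, 1084 and 1264 in MYB12OX and 1075, 951 and 1354 in Col-0. MYB12OX and Col-0 overlapped and the pap1-D mean lay between them and WOX1-1. AT5G57655 was higher by 1.11 ± 0.14 (SE; adjusted p = 1.14e-05) in MYB12OX/tt4 and by 0.81 ± 0.14 (adjusted p = 0.000376) in pap1-D/tt4.

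AT4G38540, an FAD-dependent monooxygenase, gave 718, 721 and 771 in tt4, 491, 769 and 572 in pap1-D/tt4 and 395, 422 and 405 in MYB12OX/tt4. It gave 277, 289 and 404 in WOX1-2 and 234, 253 and 284 in WOX1-1, and 238, 384 and 235 in pap1-D, 257, 248 and 304 in MYB12OX and 206, 227 and 289 in Col-0. tt4 stood highest, and the MYB12OX, WOX1-1, pap1-D and Col-0 arrays overlapped. Its difference was 1.00 ± 0.16 (SE; adjusted p = 0.00015) in pap1-D/tt4. In MYB12OX/tt4 it was 0.53 ± 0.16 (adjusted p = 0.0243), a call lost without replicate 1 or 2 of MYB12OX or replicate 2 or 3 of MYB12OX/tt4, with adjusted p up to 0.0851.

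AT5G05600, a jasmonate oxidase, which inactivates the hormone, had signals of 455, 291 and 457 in tt4, 2737, 325 and 296 in pap1-D/tt4 and 382, 253 and 279 in MYB12OX/tt4. WOX lines gave 372, 361 and 223 in WOX1-2 and 595, 190.4 and 193 in WOX1-1. Signals were 157, 253 and 191 in pap1-D, 132, 128 and 202 in MYB12OX and 73.5, 68.8 and 103 in Col-0. The pap1-D/tt4 array numbered 1 was the highest of the 24, and the WOX1-1 array numbered 1 came next. Its difference of 1.55 ± 0.51 (SE; adjusted p = 0.0358) in pap1-D/tt4 was 0.56 with adjusted p = 0.246 without pap1-D/tt4 replicate 1, and the call was also lost without pap1-D replicate 1 or 3. The difference was 0.82 ± 0.51 (adjusted p = 0.294) in MYB12OX/tt4. The cytochrome P450 gene CYP71B23 averaged 547 ± 54.6 in tt4 and 185 ± 34.4 in Col-0. The glycosyltransferase AT4G15260 averaged 262 ± 41.5 in tt4 and 99.5 ± 9.95 in Col-0. Both passed as higher in each CHS comparison, as did AT1G21540, of the AMP-dependent synthetase and ligase family.

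Of the 9 membrane, transport and cold-related genes, 7 were higher in MYB12OX/tt4 and 6 in pap1-D/tt4. HHP2, a heptahelical membrane protein, read 324, 380.2 and 330.2 in tt4, 315, 297 and 326 in pap1-D/tt4 and 269, 377 and 357 in MYB12OX/tt4. The WOX lines read 222, 229 and 203 in WOX1-2 and 253, 262 and 187 in WOX1-1. Readings were 265, 289 and 192 in pap1-D, 197, 195 and 167 in MYB12OX and 135, 143 and 139 in Col-0. pap1-D lay nearer to the WOX lines than to MYB12OX. HHP2 was higher by 0.71 ± 0.13 (SE; adjusted p = 0.00044) in MYB12OX/tt4, and its 0.30 ± 0.13 (adjusted p = 0.102) in pap1-D/tt4 did not pass. AT1G61740, of a sulfite exporter family, averaged 2867 ± 286 in tt4 and 1369 ± 56.2 in Col-0. The transporter-like AT2G16660 averaged 5205 ± 389 in tt4 and 2145 ± 334 in Col-0. Its relative AT2G39210 averaged 782 ± 96.9 in tt4 and 269 ± 62.3 in Col-0. These 3 genes passed as higher in both comparisons, together with AT2G23680, AT1G52200 and AT4G29950.

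LTI30, a dehydrin of the cold and dehydration response, read 3152, 597 and 894 in tt4, 4499.7, 736 and 826 in pap1-D/tt4 and 2083, 796 and 844 in MYB12OX/tt4. WOX1-2 and WOX1-1 arrays read 2217, 788 and 670.1 in WOX1-2 and 1326, 645 and 695 in WOX1-1. LTI30 readings were 1257, 642 and 779 in pap1-D, 557, 702 and 584 in MYB12OX and 493, 538 and 612 in Col-0. In every genotype but MYB12OX and Col-0 the array numbered 1 was the highest, and the genotypes overlapped. Its difference of arrays numbered 3 against 1, -1.03 (adjusted p = 0.0784) over the 5 genotypes outside the rule, did not pass. Of a list of 15 cold and dehydration genes, 5 were tested, LTI30 among them. COR28 averaged 3994 in MYB12OX/tt4 and 1881 in MYB12OX (adjusted p = 4.49e-05). In pap1-D/tt4 COR28 was higher by 0.57 ± 0.16 (adjusted p = 0.0141), a call lost without pap1-D/tt4 replicate 3 (0.48, adjusted p = 0.0748), and no other gene of the list passed in these 2 comparisons.

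AT5G42570, resembling the BAP31 protein of the endoplasmic reticulum, read 1032, 463 and 648 in tt4, 1194, 479 and 602 in pap1-D/tt4 and 761, 491 and 514 in MYB12OX/tt4. Both WOX lines gave 894, 433 and 382 in WOX1-2 and 974, 409 and 389 in WOX1-1. The rest gave 584, 379 and 353 in pap1-D, 388, 325 and 317 in MYB12OX and 227, 269 and 385 in Col-0. In every genotype but Col-0 the array numbered 1 was the highest. Over the 5 genotypes outside the rule, arrays numbered 3 differed from arrays numbered 1 by -0.73 (adjusted p = 0.0203). Over all 8 genotypes the difference was -0.59 ± 0.14 (SE), a description, since that fit holds the arrays that chose the genes. Its call there was lost without replicate 1 or 3 of WOX1-1 or WOX1-2 or replicate 1 of pap1-D/tt4.

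Wall-related genes, lectins and inhibitors were higher in 3 of 5 cases in each comparison. AT5G62360, an inhibitor of invertases or pectin methylesterases, read 10856, 3409 and 3307 in tt4, 12252, 2949 and 3155 in pap1-D/tt4 and 6874, 2668 and 2407 in MYB12OX/tt4. WOX1-2 and WOX1-1 gave 5694, 2183 and 1581 in WOX1-2 and 5226, 1962 and 1832 in WOX1-1. AT5G62360 read 2890.3, 1687 and 1529.7 in pap1-D, 1749, 1353 and 1522 in MYB12OX and 1529, 1591 and 1976 in Col-0. Its arrays numbered 1 gave the largest values in every genotype but Col-0, and without them the genotypes lay closer together. AT5G62360 was lower on arrays numbered 3 in the 5 genotypes outside the rule, at -1.21 (adjusted p = 0.012), and its CHS differences of 1.19 ± 0.55 (adjusted p = 0.145) and 1.29 ± 0.55 (adjusted p = 0.103) did not pass.

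AT5G55450, a lipid-transfer protein, gave 311, 261 and 757 in tt4, 203, 274 and 376 in pap1-D/tt4 and 198, 367 and 289 in MYB12OX/tt4. The WOX lines gave 167, 229 and 403 in WOX1-2 and 131, 122 and 130.2 in WOX1-1. It read 107, 234 and 141 in pap1-D, 229, 229 and 285 in MYB12OX and 145, 147 and 114 in Col-0. A tt4 array numbered 3 stood well above the others, and MYB12OX arrays exceeded WOX1-1 arrays. The CHS differences, 0.14 ± 0.30 (adjusted p = 0.793) and 0.70 ± 0.30 (adjusted p = 0.112), did not pass. AT1G72060, a serine protease inhibitor, averaged 1198 ± 328 in tt4 and 267 ± 43.6 in Col-0. The chitinase-family gene AT1G02360 averaged 181 ± 28.9 in tt4 and 56.1 ± 2.11 in Col-0. The mannose-binding lectin AT5G18470 averaged 432 ± 176 in tt4 and 99.6 ± 25.9 in Col-0. These 3 genes passed as higher in both CHS comparisons.

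Of the genes in other roles, SUFE2, which activates iron-sulfur cluster assembly, did not pass. SUFE2 gave 209, 265 and 194 in tt4, 116, 324 and 129.8 in pap1-D/tt4 and 163, 164 and 126 in MYB12OX/tt4. SUFE2 then gave 87.4, 94.6 and 112 in WOX1-2 and 99.7, 72.9 and 77.6 in WOX1-1. SUFE2 gave 73.9, 173 and 83.2 in pap1-D, 163, 122 and 108 in MYB12OX and 105, 70.5 and 88.5 in Col-0. The arrays numbered 2 of pap1-D/tt4 and pap1-D stood above the others of their genotype, and those genotypes overlapped. Its CHS differences were 0.17 ± 0.24 (adjusted p = 0.692) and 0.55 ± 0.24 (adjusted p = 0.118). AT3G02070, an OTU-type cysteine protease, and AT2G48030, of the DNase I-like family, passed as higher in both comparisons.

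**Figure D4:**
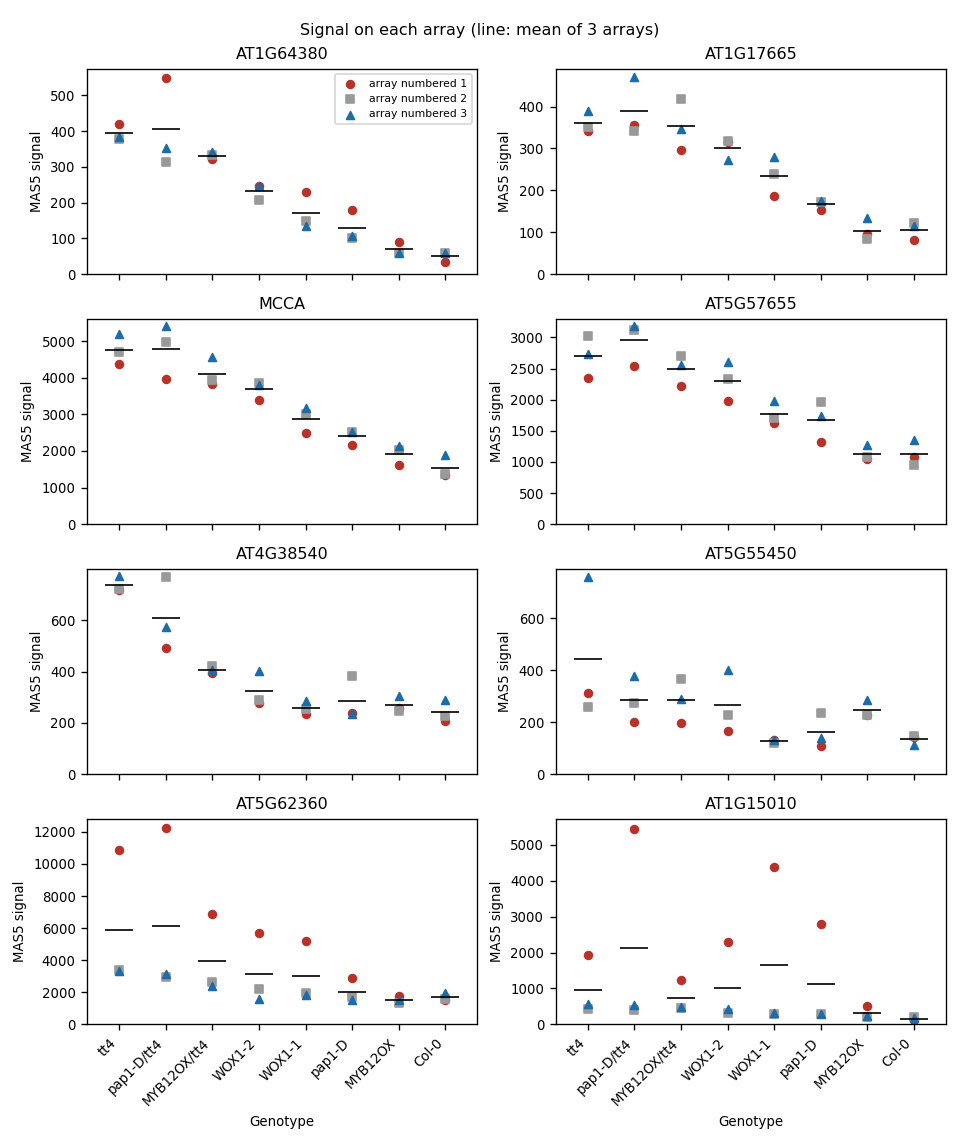
MAS5 signal of 8 genes on each of the 24 arrays, by genotype, with the mean of the 3 arrays as a line and array numbers as colours and shapes. AT1G64380, AT1G17665, MCCA and AT5G57655 separate CHS mutants from their partners, while AT5G62360 and AT1G15010 have their highest arrays among those numbered 1.

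Genes without a role given here were higher in 10 of 13 cases in MYB12OX/tt4 and in 8 of 13 in pap1-D/tt4. AT1G17665 read 342, 352 and 389 in tt4, 356, 342 and 471 in pap1-D/tt4 and 296, 419 and 348 in MYB12OX/tt4. AT1G17665 also read 316, 319 and 272 in WOX1-2 and 186, 239 and 279.9 in WOX1-1. Remaining readings were 154, 172 and 173 in pap1-D, 94.8, 83.3 and 134 in MYB12OX and 81.3, 122 and 116 in Col-0. The CHS mutants stood above pap1-D and MYB12OX without overlap. AT1G17665 was higher by 1.44 ± 0.15 (SE; adjusted p = 1.11e-06) in MYB12OX/tt4, by 1.04 ± 0.15 (adjusted p = 4.14e-05) in pap1-D/tt4 and by 0.92 ± 0.15 (adjusted p = 0.00088) in WOX1-1 against MYB12OX. AT5G57760 averaged 1095 ± 111 in tt4 and 425 ± 18.9 in Col-0, and in WOX1-1 against MYB12OX it was higher by 0.79 ± 0.14 (adjusted p = 0.00164).

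AT1G15010 read 1919, 418 and 565 in tt4, 5444, 408 and 547 in pap1-D/tt4 and 1242, 460.2 and 486 in MYB12OX/tt4. It had 2303, 331 and 417 in WOX1-2 and 4370.3, 280.2 and 331 in WOX1-1. It had 2779.9, 300.3 and 302 in pap1-D, 516, 215 and 237 in MYB12OX and 113, 193 and 181 in Col-0. Within 7 of the 8 genotypes the array numbered 1 was at least 2-fold above the other arrays, and only Col-0 was without such an array. Between arrays numbered 3 and 1 of the 5 genotypes outside the rule AT1G15010 differed by -2.42 (adjusted p = 0.0078), and its CHS differences did not pass.

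AT2G18690, AT3G01430 and AT1G74440 had among the smallest differences. AT2G18690 read 596, 572 and 749.6 in tt4, 495, 576 and 555 in pap1-D/tt4 and 480.1, 478 and 492 in MYB12OX/tt4. AT2G18690 gave 434, 315 and 582 in WOX1-2 and 450.4, 292 and 258 in WOX1-1. The readings were 475, 328 and 293 in pap1-D, 329, 329.7 and 392 in MYB12OX and 137, 241 and 200.2 in Col-0. Arrays of tt4 overlapped with those of pap1-D/tt4, and the Col-0 arrays were below all others. Its CHS differences were 0.42 ± 0.20 (adjusted p = 0.149) and 0.54 ± 0.20 (adjusted p = 0.0574), neither past the threshold.

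AT3G01430 read 231, 225 and 243 in tt4, 173, 187 and 193 in pap1-D/tt4 and 223, 234 and 269 in MYB12OX/tt4. AT3G01430 gave 203, 182 and 249.5 in WOX1-2 and 211, 158 and 202 in WOX1-1. Remaining values were 175, 162 and 231 in pap1-D, 153, 199.8 and 168 in MYB12OX and 20.5, 125 and 148 in Col-0. Arrays of pap1-D/tt4 and pap1-D overlapped, and the Col-0 arrays were the lowest of the genotypes. Its differences were 0.40 ± 0.25 (adjusted p = 0.293) in MYB12OX/tt4 and -0.02 ± 0.25 (adjusted p = 0.969) in pap1-D/tt4.

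AT1G74440 read 312, 458 and 532 in tt4, 345, 341 and 390.5 in pap1-D/tt4 and 370.4, 383 and 350.4 in MYB12OX/tt4. AT1G74440 gave 275, 323 and 434 in WOX1-2 and 326, 211 and 296 in WOX1-1. AT1G74440 values were 308, 244 and 282 in pap1-D, 239, 227 and 226 in MYB12OX and 132, 193 and 161 in Col-0. MYB12OX/tt4 arrays lay above all MYB12OX arrays, and pap1-D/tt4 above pap1-D by a narrower gap. It was higher in MYB12OX/tt4 by 0.59 ± 0.16 (SE; adjusted p = 0.0144), a call lost without MYB12OX/tt4 replicate 2 (adjusted p = 0.0529), and its 0.33 ± 0.16 (adjusted p = 0.168) in pap1-D/tt4 did not pass.

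Arrays also differed by their number within a genotype. In the 5 genotypes outside the rule, arrays numbered 3 were higher than arrays numbered 1 in 2 genes, MCCA and AT5G57760, and lower in 5, where 0.442% and 0.643% of all probe sets passed. The median difference over the 50 genes was 0.09. Over all 8 genotypes 12 genes were higher and 6 lower, with 2.87% and 1.94% of all probe sets and a median of 0.15 (-1.95 to 0.49). That fit holds the tt4, WOX1-2 and Col-0 arrays that chose the genes, so its counts are a description. Genes with the array numbered 3 above the array numbered 1 numbered 38 in tt4, 37 in pap1-D/tt4, 30 in MYB12OX/tt4, 36 in WOX1-2, 21 in WOX1-1, 33 in pap1-D, 34 in MYB12OX and 45 in Col-0. In 11 genes this held in 8 of 8 genotypes. Over all probe sets tested, 55.5% were higher on arrays numbered 3 in the fit over all 8 genotypes. The share within each genotype was not computed, so nothing is read from the counts by genotype or from the 11 genes. AT2G37750, of unknown role here, had 0.52 (adjusted p = 0.0858) over the 5 genotypes and AT1G72060 0.19 (adjusted p = 0.242), neither past the threshold.

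The 6 genes lower on arrays numbered 3 over all 8 genotypes were AT1G15010, AT5G62360, LTI30, AT4G32800, AT5G42570 and AT1G18210, and all but LTI30 passed as lower in the 5 genotypes outside the rule. AT1G18210 read 2323, 2048 and 1981 in tt4, 2584, 2007 and 1969.8 in pap1-D/tt4 and 2262, 1689.7 and 1854 in MYB12OX/tt4. AT1G18210 gave 2687, 1249 and 1477 in WOX1-2 and 2364, 1213 and 1189 in WOX1-1. Values of AT1G18210 were 1634, 930.2 and 1147 in pap1-D, 1211, 998 and 972 in MYB12OX and 686, 826 and 937 in Col-0. In every genotype but Col-0 its highest array was that numbered 1. Over the 5 genotypes its difference between arrays numbered 3 and 1 was -0.49 (adjusted p = 0.0274). Over all 8, as a description, it was -0.38 ± 0.11 (SE). The call of that fit was lost in 13 of 16 cases with 1 array left out, and kept without either Col-0 array or without tt4 replicate 1. Of these 6 genes, 1 passed in each CHS comparison (9.2% and 10.1% of all probe sets), and 5 of the 10 genes that passed in neither comparison are among them. A difference by array number widens the spread within a genotype, so nothing is read from these counts. Their pap1-D/tt4 means stood at a median of 112.7% of the tt4 minus Col-0 difference.

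**Figure D5:**
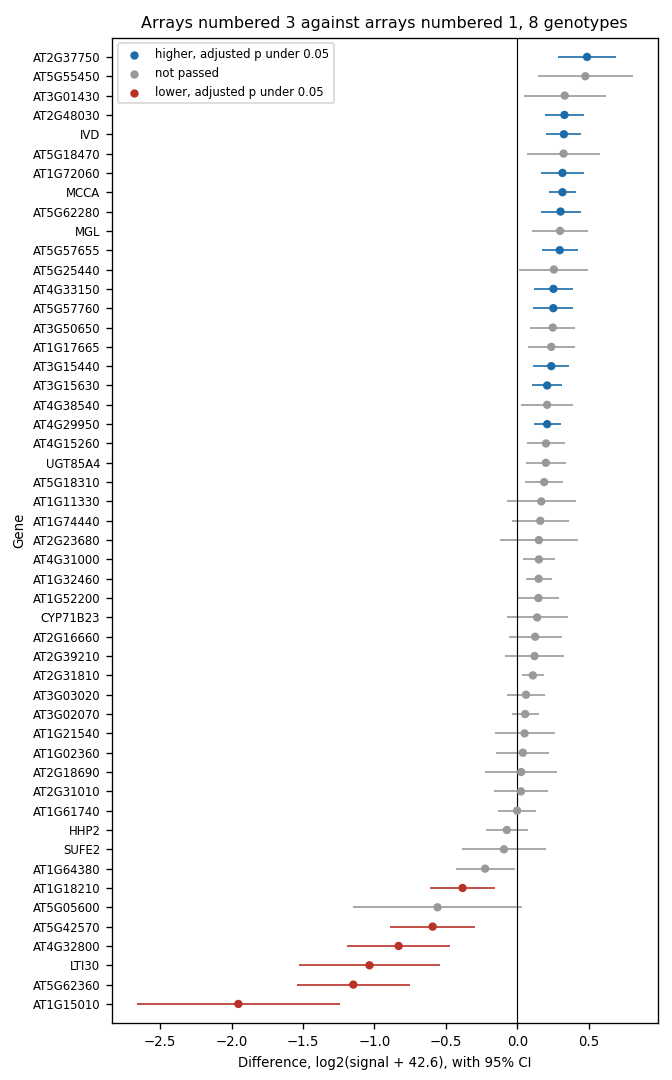
Difference on the log2(signal + 42.6) scale between arrays numbered 3 and arrays numbered 1 over the 8 genotypes, with 95% confidence interval, for each of the 50 genes. The fit holds the tt4, WOX1-2 and Col-0 arrays that chose the genes, so its points and calls are a description. Blue points (12) passed as higher and red points (6) as lower, the lowest being AT1G15010 with -1.95; in the 5 genotypes outside the rule 2 passed as higher and 5 as lower.

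A second kind of course was seen in 11 genes whose WOX1-1 mean was not above their MYB12OX mean, a grouping made after the values were seen. They are AT1G02360, AT1G11330, AT1G52200, AT2G18690, AT2G37750, AT2G39210, AT4G33150, AT4G38540, AT5G55450, CYP71B23 and SUFE2. All 11 had their highest mean in tt4. Their median place was 72.0% in pap1-D/tt4, 63.6% in MYB12OX/tt4, 43.5% in WOX1-2, 10.0% in WOX1-1, 17.2% in pap1-D and 33.4% in MYB12OX. The grouping fixes the order of WOX1-1 and MYB12OX, so their difference is not tested over these genes. The other 33 genes had medians of 96.3% in pap1-D/tt4, 91.0% in MYB12OX/tt4, 77.5% in WOX1-2, 55.4% in WOX1-1, 44.5% in pap1-D and 25.6% in MYB12OX. Of these 33, 31 were higher in MYB12OX/tt4 and 30 in pap1-D/tt4, and of the 11, 7 and 6. Over all probe sets tested, 9.2% and 10.1% passed as higher. The grouping used the MYB12OX means and the calls by array number, which bear on these comparisons, so nothing is read from the counts.

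Genes of related programmes were read from lists chosen for this tissue. Of 12 lists with 88 genes, 17 genes could be tested, and 5 lists held none (morning clock, brassinosteroid synthesis, root, flower and seed). In the sugar starvation and darkness list, AKINBETA1, a subunit of the SnRK1 energy-sensing kinase, was higher by 0.59 ± 0.13 (adjusted p = 0.00216) in MYB12OX/tt4 and 0.50 ± 0.13 (adjusted p = 0.00796) in pap1-D/tt4, the second lost without pap1-D replicate 1 (0.40, adjusted p = 0.0583). MCCA was the other gene tested. Of 3 auxin and shade genes tested, 2 were higher in MYB12OX/tt4 (IAA29 and HAT2) and 0 in pap1-D/tt4. The single evening clock gene tested did not pass. RCA differed by -0.23 ± 0.08 (adjusted p = 0.042) in MYB12OX/tt4 and by -0.23 ± 0.08 (adjusted p = 0.0425) in pap1-D/tt4, and its part in the results above was not tested.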

How the data were processed

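The table deposited by the authors holds linear intensities from Affymetrix ATH1 arrays. MAS5 is the tool named in the submitters' processing notes; its version and any hybridization date were not given in the sources used here. After trimming 2% at each end, the mean was 500.0 on each of the 24 arrays, and array medians lay between 163.89 and 176.73. The number of arrays limits the precision.

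Signals were turned into log2(signal + 42.6), which understates the changes of dim probe sets. Probe sets above 85.2 on at least 3 of 24 arrays were tested, which kept 14935. All 8 genotypes entered 1 model with a mean per genotype in limma 3.58.1 under R 4.3.3 (eBayes with a trend). P-values were two-sided and adjusted by Benjamini-Hochberg over all probe sets tested. The script was tested on simulated data. The comparison by array number had genotype as a block. Same-numbered arrays were treated as unpaired, since not every pair correlated above 0.1: 19, 8 and 9 of 28 did for numbers 1, 2 and 3.

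The genes and lists were chosen with earlier results of these data known. Values on every array are given for the 6 largest and 4 smallest differences of each CHS comparison and for genes lower in any comparison. Names came from GEO's platform annotation, and 13436 of 13513 probe sets with 1 gene matched RefSeq (TAIR10.1). Promoter and protein sequences were not analysed here. Values of 1 listed gene outside the 50 are not reported here. Alternatives were other offsets, filters and normalization, array weights, the replicate block, listing place as a covariate and leaving out arrays. A further pair was added after seeing the data: leaving out the arrays numbered 1 and using only the genotypes outside the rule.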

Additional observations from a re-analysis of the deposited data

How the results depend on the processing

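Counts of passing genes lay between 31 and 36 with 1 array left out for MYB12OX/tt4 against MYB12OX, between 25 and 34 for pap1-D/tt4 against pap1-D, between 6 and 14 for WOX1-1 against MYB12OX and between 0 and 3 for pap1-D against MYB12OX. For arrays numbered 3 against 1 they lay between 9 and 12 higher and between 4 and 7 lower. The median of WOX1-1 against pap1-D lay between -0.011 and 0.138. Other settings (offset, filter, normalization, array weights) kept the median's direction and the counts within 1.5 times. With only the compared genotypes in the model, 9 genes were higher and 1 (AT5G55450) lower in WOX1-1 against MYB12OX, and 0 higher in pap1-D against MYB12OX. Without the arrays numbered 1, pap1-D against MYB12OX also gave 0. With the replicate block, 42, 41, 18 and 5 genes passed in the first 4 comparisons named above. The shares of all probe sets called under these settings are not set beside the counts, so nothing is read from them. Nothing in the labels says that a number marks a shared batch, and 15 of 24 arrays correlated best with arrays of their own number, a hint from the data and not the design. Arrays numbered 3 against 1 gave 2 higher and 5 lower genes in the genotypes outside the rule.

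With listing place as a covariate, 4 genes passed as higher in each CHS comparison and in WOX1-1 against MYB12OX. Of these, AT1G64380 also passed without it and AT1G15010, AT5G62360 and AT4G32800 did not. Over all 14935 probe sets, 56 passed as higher and 34 as lower with the covariate in WOX1-1 against MYB12OX. All values of this setting extrapolate the array order within genotypes to the distance between genotypes, so turned signs are a description. There were 0 genes passing in pap1-D against MYB12OX and 1 lower (AT5G62280) in pap1-D/tt4 against MYB12OX/tt4. Of all probe sets, 23 passed as higher and 7 as lower in the first of these comparisons, and 18 and 16 in the second. The medians turned to -0.28 for MYB12OX/tt4, -0.32 for pap1-D/tt4, -0.16 for WOX1-1 against MYB12OX, -0.13 for WOX1-1 against pap1-D, -0.019 for pap1-D against MYB12OX and -0.13 for pap1-D/tt4 against MYB12OX/tt4. Of all 50 genes, 30 were negative in MYB12OX/tt4 and 33 in pap1-D/tt4. Among genes named with values, those with a turned sign in MYB12OX/tt4 had log2 differences of AT5G25440 -0.32, AT5G57655 -0.67, MCCA -0.81, AT5G55450 -2.71, AT3G01430 -1.59, IVD -1.06, AT4G33150 -1.01, MGL -1.24, UGT85A4 -0.33, AT4G38540 -0.72, AT1G11330 -0.43, AT1G74440 -0.38, MCCB -0.34, ETFQO -0.92, ALDH6B2 -0.58, COR28 -0.37 and AKINBETA1 -1.15. In pap1-D/tt4 they were AT1G17665 -0.39, AT5G25440 -0.92, AT5G57655 -0.96, MCCA -0.92, AT5G55450 -2.15, IVD -1.08, AT4G33150 -0.89, MGL -1.21, AT2G31810 -0.24, UGT85A4 -0.079, AT4G38540 -0.25, AT1G11330 -0.68, AT1G74440 -0.64, MCCB -0.55, ETFQO -0.79, ALDH6B2 -0.62, COR28 -0.90 and AKINBETA1 -1.25. With 1 array left out, the sign also turned for AT5G55450 in MYB12OX/tt4 (-0.035 to 0.351) and for AT3G01430 in pap1-D/tt4 (-0.10 to 0.11). The cause was not tested. A total of 3 arrays per genotype and the absence of detection calls limit what can be read from dim genes.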
